A study of Mus musculus with 39 samples.

Results

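The genes described here mark lipid associated macrophages, the macrophages that gather around dying fat cells in obese adipose tissue. They are Trem2, Tyrobp, Gpnmb, Spp1, Itgax, Cd9, Cd63, Lgals3, Emr1 (the older name of Adgre1, which encodes F4/80) and Cd68. The genes were chosen by name as macrophage genes known from obese fat, not by a threshold on their values. All 10 were on the array, with 14 of its 40628 probes, among 29411 gene names. Each gene is given by the brightest of its probes, and any other probe of the gene serves as a check.

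RNA came from epididymal adipose tissue, the fat pad beside the testis, of C57BL/6J mice weaned at 3 to 4 weeks of age, and was hybridised to 39 one-colour Agilent arrays. LFC mice (11 arrays) ate a diet with 10% of calories from fat, and HFC mice (10 arrays) a high-fat, high-sucrose diet with 60% of calories from fat. HF5, HF20 and HF75 mice (6 arrays each) ate the same food as HFC together with KAL-1, an aqueous botanical formulation, at 5, 20 or 75 µg. LFC arrays covered days 1, 6, 10 and 14 and weeks 0, 3, 6, 9, 12, 15 and 18, HFC arrays the same from day 6, and the KAL-1 arrays weeks 3 to 18. For liver data of the same experiment, the paper counts weeks from day 14 and takes day 14 and week 0 as the same time. Here they are kept as separate time points. Days 1 to 14 and week 0 are called early here, and weeks 3 to 18 late. Each diet had 1 array per time point, so time points stand in for replicates. For HFC against LFC over 10 time points, a p-value measures the spread of the difference over time points. Over weeks 3 to 18 it rests on a spread shared by all diets in the fit. For late against early within a diet it rests on the spread of single arrays within a period. Whether the RNA on an array came from 1 animal or a pool is not given in the labels. Whole fat pads were measured, so more macrophages and more RNA per macrophage cannot be told apart.

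TREM2 is a lipid receptor on the macrophage surface that signals through the adaptor TYROBP (DAP12), whose activation motif recruits the kinase SYK. In obese fat this receptor is known to drive a program of lipid uptake and lysosomal breakdown that includes the glycoprotein GPNMB, the galectin LGALS3 and the tetraspanins CD9 and CD63. ITGAX (CD11c) is an integrin chain classically used to mark the inflammatory macrophages of obese fat, and SPP1 (osteopontin) is a secreted matrix protein that attracts macrophages. ADGRE1 and CD68 are markers of macrophages in general, the latter a lysosomal membrane protein.

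Over the arrays the genes fell into 3 patterns, described further on, and the 60-base probe of 1 gene of each is shown so that a reader can see what the values report. Lgals3 moved with Trem2, Tyrobp with the general macrophage markers, and Cd63 with neither.
Lgals3: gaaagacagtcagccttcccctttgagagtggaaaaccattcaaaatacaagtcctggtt
Tyrobp: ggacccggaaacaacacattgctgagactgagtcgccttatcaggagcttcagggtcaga
Cd63: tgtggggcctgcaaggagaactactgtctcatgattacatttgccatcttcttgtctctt

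Trem2, Itgax, Gpnmb and Lgals3 moved together, so their promoters were searched for letters that macrophage and lysosomal regulators bind. RefSeq promoters (build GRCm38.p6, 300 bases each) were found for 7 of the 10 genes, 8 promoters in all, since Spp1 has a pair. The other 3, Tyrobp, Emr1 and Cd68, make up the whole second pattern, so the patterns could not be compared. The E-box CACGTG was in 0 of the 8 and in 7.15% of all 32851 promoters. The AP-1 site TGACTCA, read on both strands, was in 2 of the 8 and in 5.2% of all. The PU.1 site GAGGAAGT was in 1 of the 8 (Spp1) and in 3.2% of all. Both promoters with an AP-1 match, those of Gpnmb and Itgax, are shown with the match in capitals. It begins 8 bases past the start of Gpnmb, and for Itgax 56 bases before the start, on the opposite strand.
Gpnmb (chr6:49036268-49036567, plus strand): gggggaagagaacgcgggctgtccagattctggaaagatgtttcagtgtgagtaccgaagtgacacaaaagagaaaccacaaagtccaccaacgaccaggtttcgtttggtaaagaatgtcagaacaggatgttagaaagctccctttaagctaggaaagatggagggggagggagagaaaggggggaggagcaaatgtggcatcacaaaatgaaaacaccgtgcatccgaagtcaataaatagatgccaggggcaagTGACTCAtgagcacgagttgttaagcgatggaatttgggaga
Itgax (chr7:128129300-128129599, plus strand): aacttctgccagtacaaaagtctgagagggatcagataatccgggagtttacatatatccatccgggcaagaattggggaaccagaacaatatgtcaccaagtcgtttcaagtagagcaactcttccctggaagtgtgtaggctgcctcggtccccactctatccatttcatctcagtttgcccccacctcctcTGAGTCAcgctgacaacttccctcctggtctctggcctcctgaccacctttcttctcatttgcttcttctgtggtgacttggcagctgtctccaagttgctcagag

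All 10 brightest probes were well above background on 39 of 39 arrays, and none was saturated. Values are log2 of the processed signal less the 75th percentile of the array, so 0 is the level of that percentile. They compare arrays for 1 gene and not genes with each other. The LFC week 3 and HFC week 12 arrays stood apart, with 16431 and 10531 spots marked as outliers against 21 to 387 on the other 37. For the differences from LFC and the slope against LFC, values of some of the 10 genes are also given without them. The other comparisons of these genes are not given without both arrays. The signal at the 75th percentile ran from 119 to 1470 over those 37 arrays, and HF5 week 9 was the dimmest. Scan dates ran with time points, except that LFC week 3 was scanned apart from the other week 3 arrays, and HF20 and HF75 of week 6 apart from the other week 6 arrays. The 4 week 6 arrays other than HF20 held little RNA of the mesothelium that covers visceral fat, with a mean level of its 5 markers of -5.95 to -4.66, against -0.16 in HF20. On the same 4 arrays the mean of 4 visceral depot markers was -7.65 to -5.62, against -3.49 to -0.95 on the other 33, and that of 4 subcutaneous depot markers -3.59 to -3.04, against -6.62 to -4.13. So markers of the labelled visceral depot were low on these arrays, and the part of this in any week 6 difference was not tested. Upk3b and Wt1 were in both the mesothelial and the visceral list, so these means share values. Of the depot markers, Nr2f1 was well above background on 9 of the 37 arrays, Tbx15 on 11, Shox2 on 8 and En1 on 0. The depot means therefore rest partly on values near the floor. The general macrophage markers Csf1r, C1qa, Aif1 and Mpeg1 were well above background on all 37 arrays, as were the adipocyte markers Adipoq and Plin1.

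The first comparison asked what the high fat diet did to these genes. Trem2 and Itgax were higher on HFC than on LFC, by 0.89 and 1.11 log2 (1.85-fold and 2.16-fold), each at 8 of 10 time points. Neither passed after adjustment over all probes, and 8 of the 10 genes had differences above 0, as had 53.6% of all probes tested. On HFC, Trem2 was at 1.02 on day 6, 2.27 on day 10, 0.68 on day 14, 1.63 in week 0, and 2.12, 1.62, 3.05, 3.02, 2.11 and 3.30 in weeks 3 to 18. On LFC it was at -0.59 on day 1, 1.33 on day 6, 0.59 on day 10, 0.58 on day 14, 0.72 in week 0, and 0.18, 0.87, 2.34, 1.57, 2.56 and 1.21 in weeks 3 to 18. Day 6 and week 15 were the time points with LFC above HFC, and the ranges of the diets overlapped.

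For Trem2 limma gave an SE of 0.28, a 95% interval of 0.28 to 1.49 and p = 0.00797 before adjustment. Its second probe, which followed the first over 37 arrays (r = 0.943), gave 0.92 (SE 0.26, p = 0.00448) and was higher at 9 of 10 time points. Itgax was at -2.00, -0.14, -1.12 and -1.70 on the 4 early HFC arrays and at -2.69, -1.45, 0.23, -0.01, -0.83 and -0.54 on the late ones. On LFC at the same times it was at -1.55, -2.81, -2.31 and -2.15, then -3.52, -1.21, -1.44, -3.43, -1.08 and -1.85. HFC was lower only on day 6 and in week 6, and the widest gap, in week 12, rests on an array that stood apart. The SE was 0.36, the interval 0.33 to 1.89 and p = 0.00927.

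After Benjamini-Hochberg adjustment over 29518 probes, p was 0.998 for both genes. No probe of the array passed (0%). Without adjustment 403 probes (1.37%) were higher at p under 0.05, 2 of them members, and the methods' test applied to the paired differences also gave 2 members, and 0 after adjustment. Without LFC week 3 and HFC week 12 the differences were 0.68 (p = 0.0396) for Trem2 and 0.86 (p = 0.0274) for Itgax. Without week 3, the pair scanned on separate dates, they were 0.77 and 1.14, and without week 6 they were 0.90 and 1.26. With normexp background correction Itgax was 0.56 (p = 0.19).

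**Figure D1:**
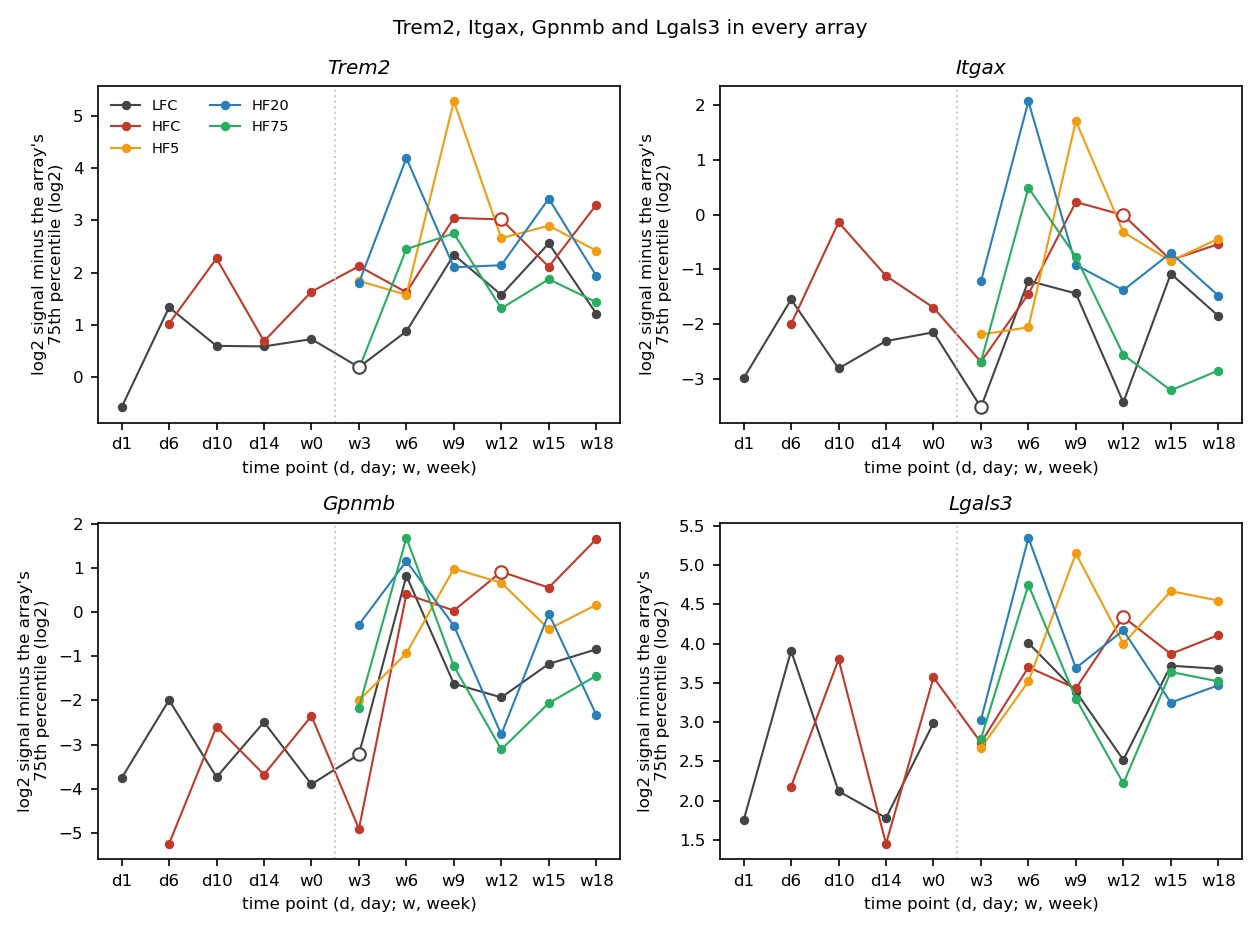
Normalised level of Trem2, Itgax, Gpnmb and Lgals3 (y axis, log2 signal less the 75th percentile of the array) at each time point (x axis), 1 point per array and 1 colour per diet. Open circles mark LFC week 3 and HFC week 12, and the dotted line divides early from late. Trem2 on HF5 in week 9 (5.29) and Itgax on HF20 in week 6 (2.07) are the highest points of their panels.

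The signalling partner and the general macrophage markers differed less clearly. Tyrobp was higher by 0.54 (SE 0.40, p = 0.202) and at 6 of 10 time points, Emr1 by 0.75 (SE 0.38, p = 0.0709) and at 7 of 10, and Cd68 by 0.74 (SE 0.41, p = 0.0942) and at 7 of 10. From day 6 to week 18 the difference of Tyrobp was -0.30, 3.19, 1.45, 0.11, 2.32, -1.41, 0.15, -0.31, -0.50 and 0.73. That of Emr1 was 0.32, 2.49, 1.79, 0.39, 3.15, -0.35, 0.56, -0.52, -0.74 and 0.40. Both were lower on HFC in weeks 6, 12 and 15, and the week 3 values rest on the LFC array that stood apart. The second, dimmer Emr1 probe gave 0.29 (SE 0.45), and it followed the first loosely (r = 0.507).

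The lysosomal and secreted members had intervals that included 0. Gpnmb was higher by 0.49 (interval -0.74 to 1.71), Lgals3 by 0.26 (-0.48 to 1.00) and Cd63 by 0.35 (-0.57 to 1.28). The second Lgals3 probe gave 0.02 (SE 0.46). The second Gpnmb probe was well above background on 2 of 39 arrays and was not tested, so Gpnmb rests on its brightest probe. Cd9 was at -0.05 (-0.75 to 0.66) and Spp1 at -0.07 (-1.05 to 0.91). The median of the 10 members was 0.52, against 0.03 over all probes tested. The interval of Cd9, the narrowest of these, still allowed differences from -0.75 to 0.66, so smaller effects were not detectable with 10 time points.

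**Figure D2:**
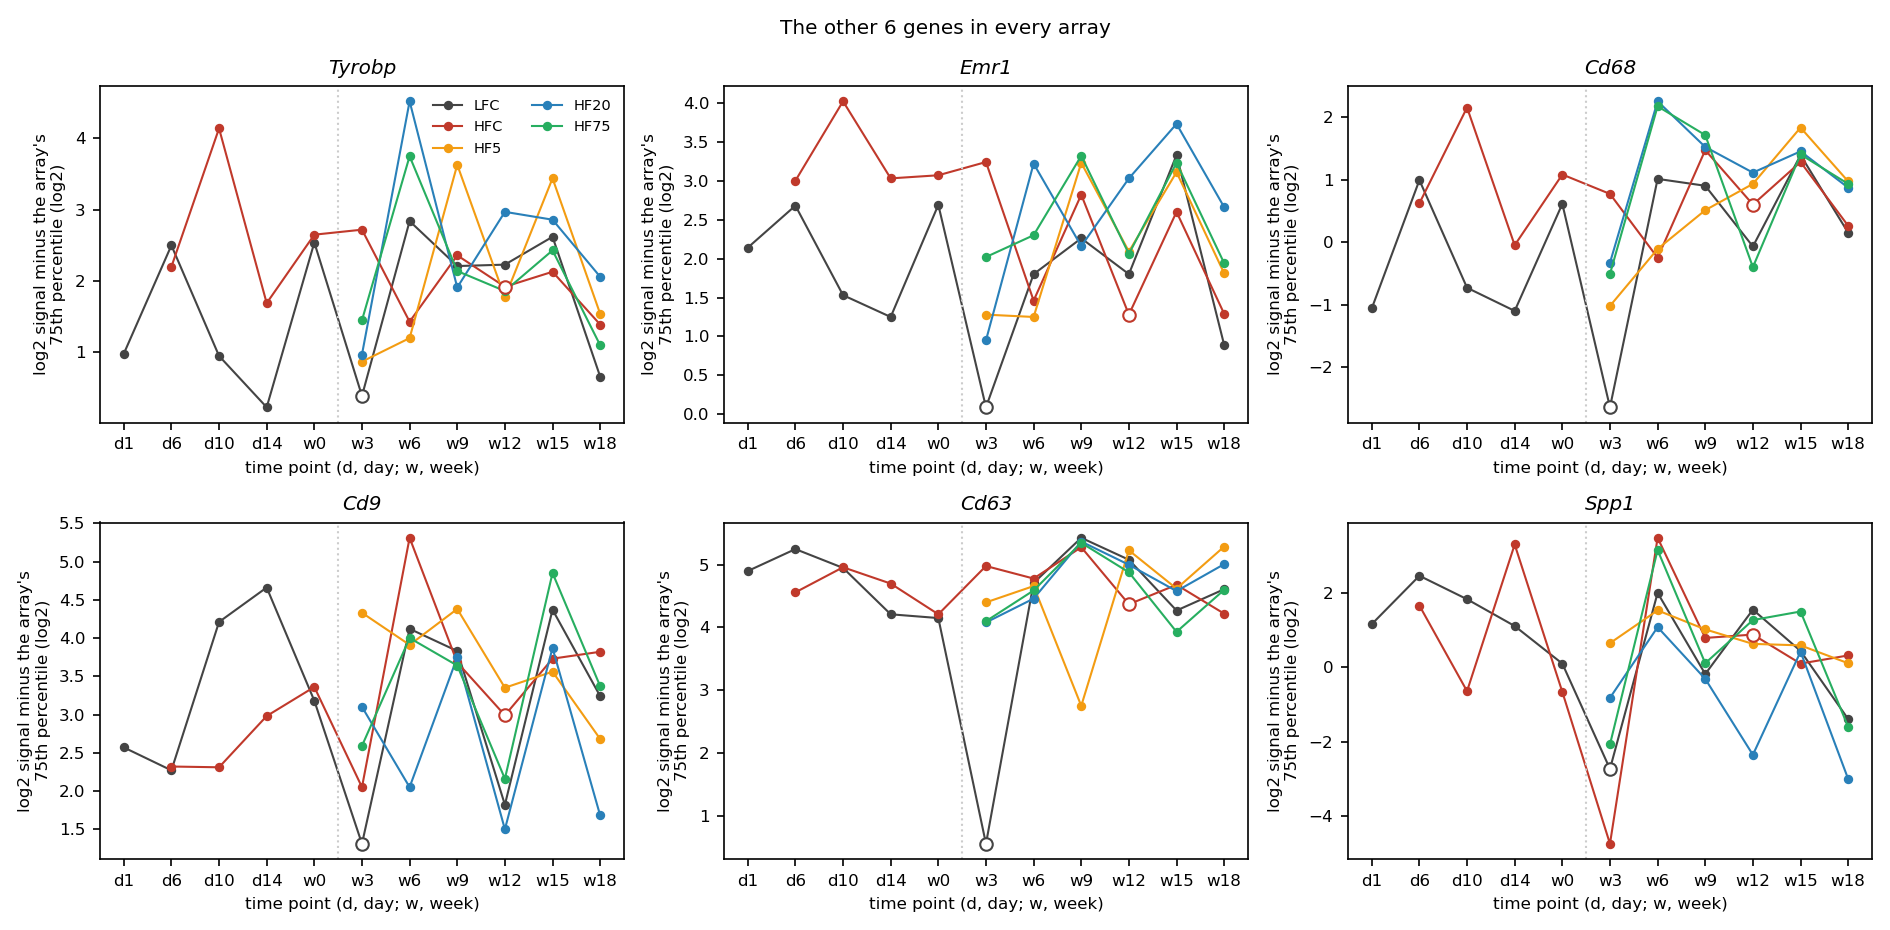
Normalised level of the other 6 genes at each time point, drawn as for the first 4. Cd63 lies between 2.75 and 5.43 on the 37 arrays that did not stand apart, while Spp1 spans -4.74 to 3.48 on them.

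Over weeks 3 to 18 alone, all 10 genes had differences above 0 between HFC and LFC, as had 57.7% of all probes. The median of the members was 0.52, against 0.06 for all probes. Without the 2 arrays that stood apart the median was 0.19, Spp1 was at -0.09, and Trem2 was at 0.86 (p = 0.128). Without week 3, Tyrobp was at -0.27, Cd63 at -0.16 and Emr1 at -0.13. With all arrays Trem2 was higher by 1.08 (SE 0.48, limma p = 0.0326, higher in 5 of 6 weeks) and its second probe by 1.04, in 6 of 6 weeks. Itgax was higher by 1.21 (SE 0.61, p = 0.0615) and Gpnmb by 1.11 (SE 0.77, p = 0.165). Of 31843 probes 0% passed, and 1.27% were higher at unadjusted p under 0.05, with Trem2 the 1 member among them.

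All 4 high fat diets were then set together against LFC, which uses more arrays. Trem2 was higher by 0.94 (SE 0.38, p = 0.0201), in 6 of 6 weeks, and its second probe by 0.77 (p = 0.0471), in 5 of 6. Itgax was higher by 1.06 (SE 0.49, p = 0.0392), in 5 of 6 weeks. Cd68 was higher by 0.69 (SE 0.34, p = 0.0573), in 6 of 6 weeks, and Emr1 by 0.64 (SE 0.32, p = 0.0592), in 5 of 6, while the second Emr1 probe was at -0.06 (p = 0.892). The other 6 genes lay between 0.17 (Spp1) and 0.68 (Gpnmb). The median was 0.58, against 0.04 for all probes. No probe passed adjustment (0%), the smallest adjusted p of a member by limma being 0.769. Without adjustment 2.73% of probes were higher at p under 0.05, 2 of them members.

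These values lean on single arrays. Without the 2 that stood apart, Trem2 was at 0.82 (p = 0.0645) and Itgax at 0.92 (p = 0.101), and Cd68 moved to 0.33 (p = 0.346), while Spp1, Cd9 and Cd63 were at -0.03, -0.09 and -0.10 and the median at 0.37. Without HF5 week 9, left out after the data had been seen, Trem2 was at 0.84 (p = 0.0205) and Itgax at 0.97 (p = 0.051). With normexp correction Itgax was at 0.24 (p = 0.573). Without week 6 the values were 0.81 (p = 0.0284) for Trem2 and 1.08 (p = 0.011) for Itgax.

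**Figure D3:**
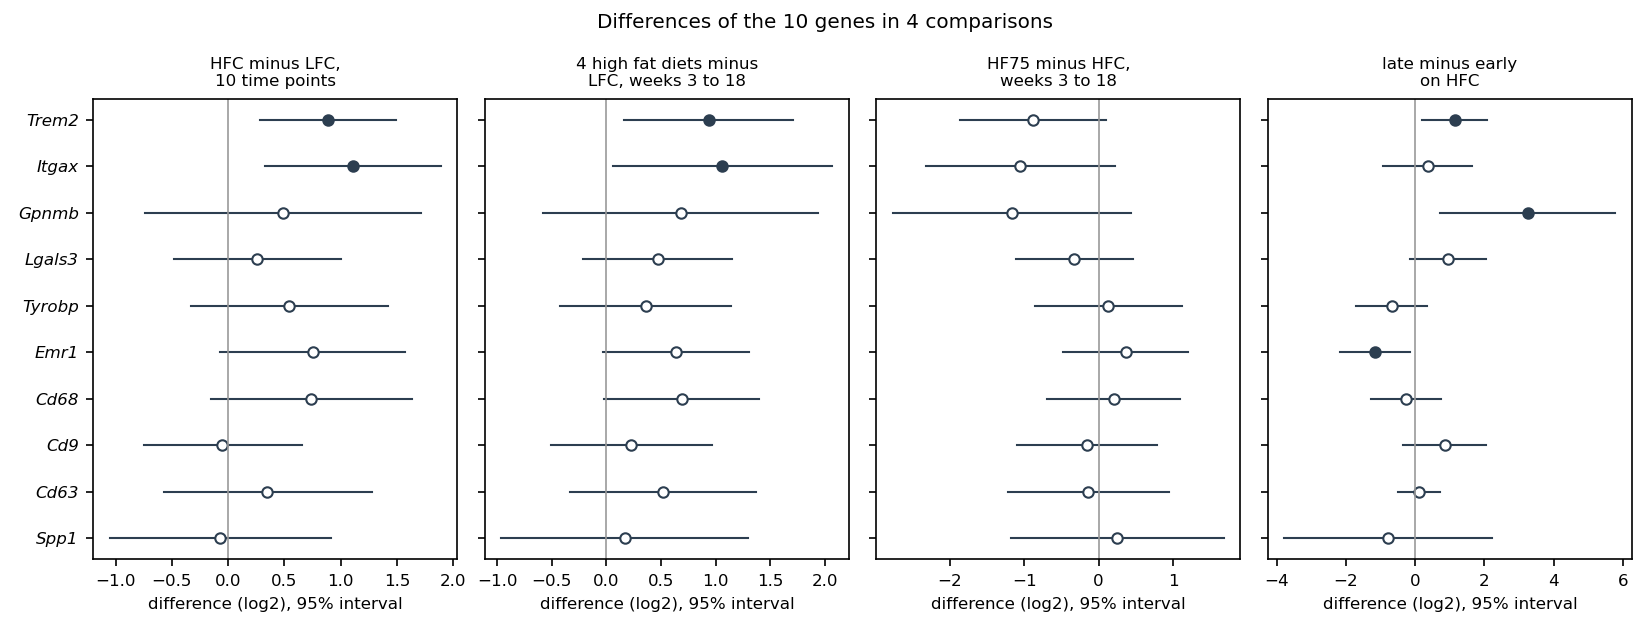
Difference (x axis, log2) of each gene (y axis) in 4 comparisons, with the 95% interval of the limma fit as a line. Filled points have an unadjusted p under 0.05, and none passed after adjustment. Trem2 and Itgax lie above 0 in both comparisons with LFC, at 0.89 to 1.11, and below 0 for HF75 against HFC.

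The doses of KAL-1 were compared with HFC over weeks 3 to 18. HF75, the highest dose, had the lowest mean of Trem2 (1.66), Itgax (-1.93) and Gpnmb (-1.38) among the 4 high fat diets, but no difference from HFC passed. Trem2 on HF75 was at 0.15, 2.45, 2.75, 1.31, 1.87 and 1.43 in weeks 3 to 18, below HFC in 5 of 6 weeks. Itgax was at -2.69, 0.49, -0.77, -2.56, -3.21 and -2.85, and Gpnmb at -2.16, 1.69, -1.22, -3.11, -2.06 and -1.44. From week 9 on all 3 genes were below HFC at each time point, while in week 6 all 3 were above it.

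On average Trem2 was lower on HF75 by 0.88 log2 (difference -0.88, interval -1.86 to 0.10, p = 0.0772), and its second probe gave -1.05 (interval -2.01 to -0.10, p = 0.0326). Itgax differed by -1.05 (-2.32 to 0.22, p = 0.101) and Gpnmb by -1.16 (-2.76 to 0.43, p = 0.145). Lgals3 differed by -0.33, while Tyrobp, Emr1 and Cd68 were at 0.13, 0.36 and 0.20. The median of the members was -0.15, against -0.02 for all probes. Of the array 0% passed adjustment, and 1.55% of probes and 0 members by their brightest probe had an unadjusted p under 0.05.

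In week 6 the HF75 and HFC arrays were scanned on different dates. Without that week the differences were -1.22 (p = 0.0105) for Trem2, -1.65 (p = 0.00298) for Itgax and -1.65 (p = 0.0541) for Gpnmb. Without week 12, which holds the HFC array that stood apart, they were -0.71, -0.75 and -0.59, with p of 0.216, 0.284 and 0.473.

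**Figure D4:**
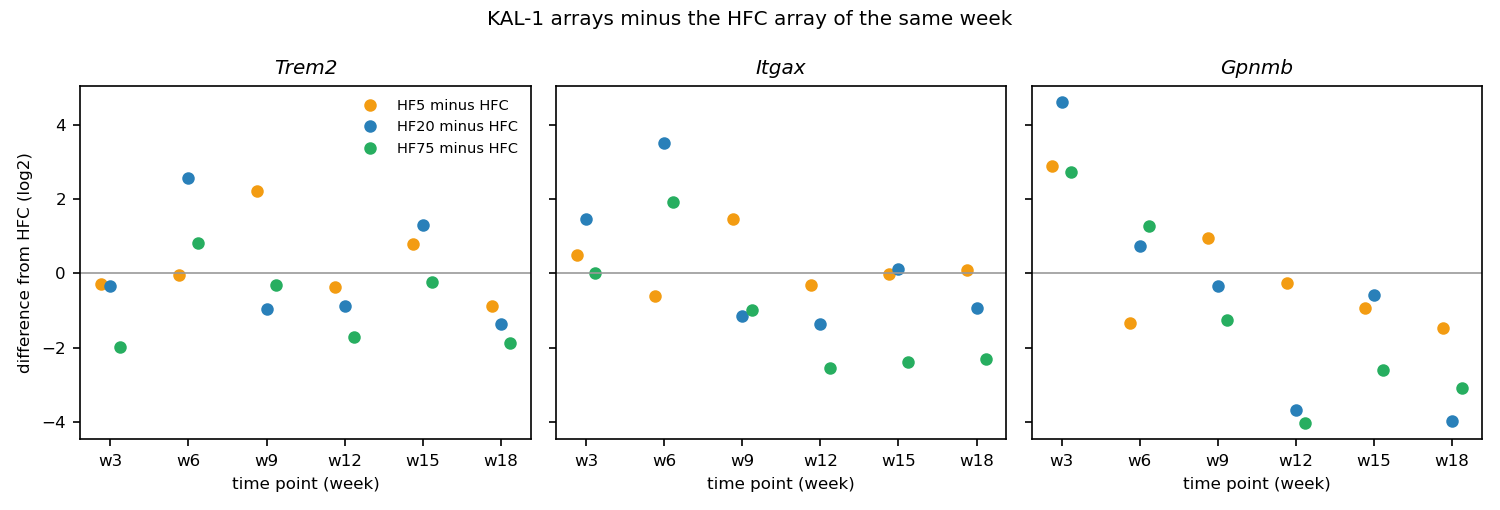
Difference of each KAL-1 array from the HFC array of the same week (y axis, log2) for Trem2, Itgax and Gpnmb, by week (x axis) and dose (colour). HF75 lies below 0 for all 3 genes from week 9 to week 18, and reaches -4.04 for Gpnmb in week 12.

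The lower doses lay nearer to HFC in Trem2 and Itgax. The means on HF5, HF20 and HF75 were 2.78, 2.60 and 1.66 for Trem2, -0.24, -0.76 and -1.38 for Gpnmb, 4.09, 3.83 and 3.37 for Lgals3 and -0.69, -0.60 and -1.93 for Itgax. Those of the first 3 genes were lower at each higher dose, an order that was not tested and not counted over all probes. The HF5 mean of Trem2 includes week 9 (5.29), on the dimmest array. Without that array it lies below the HF20 mean, so for Trem2 the order of the means rests on 1 array. Itgax, Tyrobp, Emr1, Cd68, Cd9, Cd63 and Spp1 did not follow this order. Emr1, for example, was at 2.13, 2.62 and 2.48, and Cd68 at 0.52, 1.15 and 0.88. On HF5, Trem2 was at 1.84, 1.57, 5.29, 2.66, 2.90 and 2.42 in weeks 3 to 18, a mean difference from HFC of 0.24 (interval -0.74 to 1.23). Itgax differed by 0.19 (-1.08 to 1.46) and Gpnmb by -0.02 (-1.62 to 1.57). No member had an unadjusted p under 0.05, against 3.46% of all probes in either direction, and 0% passed adjustment. On HF20, Trem2 was at 1.80, 4.2, 2.10, 2.14, 3.42 and 1.94, a difference of 0.06 (-0.92 to 1.05), and Itgax differed by 0.28 (-0.99 to 1.55). In week 6, when the HF20 and HFC arrays were scanned on different dates, HF20 was above HFC by 2.59 in Trem2 and 3.52 in Itgax. Without that week the differences were -0.44 and -0.37. Gpnmb on HF20 differed by -0.54 (-2.13 to 1.06), and as on HF75 it was below HFC at each time point from week 9 on. The differences were -0.34, -3.70, -0.58 and -3.98, and that of week 12 (-3.70) rests on the HFC array that stood apart. Cd9 was at 3.10, 2.05, 3.75, 1.5, 3.87 and 1.68 on HF20 and at 2.05, 5.31, 3.68, 2.99, 3.73 and 3.82 on HFC. It was lower in 3 of 6 weeks, with a difference of -0.94 (SE 0.45, p = 0.0491) that was -0.48 (p = 0.328) without week 6. The 3 were weeks 6, 12 and 18, when immediate early genes, which handling of tissue can induce, were low on HF20. The mean level of these 6 genes was -0.06, -0.59 and -0.69 there, against 4.68, 5.12 and 4.82 in weeks 3, 9 and 15. Their part in the Cd9 difference was not tested. For HF20 3.46% of probes were lower at unadjusted p under 0.05, 1 of them a member, and 0% passed adjustment.

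With the 3 doses averaged, the members lay between -0.57 (Gpnmb) and 0.29 (Emr1) of HFC, with a median of -0.07 against -0.03 for all probes. No member had an unadjusted p under 0.05, against 1.83% of probes, and 0% passed. The doses share the HFC arrays, and no difference between doses was tested.

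Levels were also compared between the early and late arrays of a diet. Scan dates ran with time points, so a change between the periods cannot be told apart from a change of scan date. On HFC, Gpnmb was at -5.25, -2.59, -3.68 and -2.35 early and at -4.91, 0.41, 0.04, 0.92, 0.56 and 1.66 late. Week 3 was the 1 late array within the early range. The difference was 3.25 (SE 1.15, limma p = 0.0165, adjusted p = 0.242) and 4.19 (SE 0.59, p = 3.41e-05, adjusted p = 0.0667) without week 3. Trem2 was higher late by 1.14 (SE 0.43, p = 0.0219) and its second probe by 1.03 (p = 0.0235). Emr1 was at 3.00 to 4.02 early (median 3.05, n = 4) and at 1.28 to 3.24 late (median 2.03, n = 6). The difference was -1.16 (SE 0.46, limma p = 0.0281). Its second probe gave -1.56 (p = 0.00324). Without week 6 Gpnmb was at 3.12 (p = 0.0302), Trem2 at 1.32 (p = 0.00944) and Emr1 at -1.03 (p = 0.0561). None of the 3 genes passed adjustment.

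No probe passed on HFC (0%), although 7.86% of probes were higher and 8.79% lower at unadjusted p under 0.05, and the 2 and 1 members are to be read against these shares. With arrays weighted by their quality 3 members passed by limma: Gpnmb (4.27, adjusted p = 0.0113), Cd9 (1.32, adjusted p = 0.047) and Emr1 (-1.21, adjusted p = 0.0499), among 7930 probes that did. Within weeks 0 to 18 the differences were 2.13 for Gpnmb, 0.91 for Trem2 and -0.96 for Emr1. They were taken against 1 early array, week 0, which had a scan date of its own. Immediate early genes, which handling of tissue can induce, moved with the same arrays (median 3.03, 4 of 6 higher at unadjusted p under 0.05), as did cell cycle genes (median -1.71, 5 of 5 lower). Their part in the result was not tested.

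On LFC the same comparison gave 1.85 for Gpnmb (SE 0.64, limma p = 0.0134, adjusted p = 0.624). It was at -3.90 to -1.99 early (median -3.74, n = 5) and at -3.22 to 0.83 late (median -1.40, n = 6), so the periods overlapped. The value of -3.22 is that of week 3, which stood apart. Trem2 was higher by 0.93 (SE 0.49, p = 0.0809), Lgals3 by 0.95 (p = 0.0774), and Emr1 differed by -0.36 (p = 0.523). On LFC 145 probes (0.471%) passed adjustment, 0 of them members, and 2.10% were higher at unadjusted p under 0.05, with Gpnmb the 1 member. Within weeks 0 to 18, with week 0 as the only early array, Gpnmb was at 2.57. Cell cycle genes were among those that passed on LFC: Top2a fell by 2.94, Ccnb1 by 3.04 and Aurkb by 2.87 (adjusted p = 0.0334, 0.0205 and 0.0294 by limma). The dendritic cell gene Cd209a rose by 2.31 (adjusted p = 0.0467). Neutrophil genes had a median of 2.62 (5 of 6 higher at unadjusted p under 0.05), mast cell genes 1.5 (3 of 4) and B cell genes 1.59 (2 of 4), and their part in the late values on LFC was not tested.

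Whether the diet effect itself differed between periods was tested on the 10 differences. Cd9 gave 1.32 (SE 0.56, p = 0.0393, adjusted p = 0.831 by limma), as HFC was below LFC on days 10 and 14 (2.31 against 4.21 and 2.98 against 4.66) and above it in week 6 (5.31 against 4.12). HFC was also above LFC in weeks 3 and 12, by 0.74 and 1.17, and those differences rest on the arrays that stood apart. Without day 10 the Cd9 value was 0.96 (p = 0.134). Immediate early genes had a median of 3.27 in this comparison (4 of 6 higher at unadjusted p under 0.05), and their part was not tested. For Trem2 and Itgax the values were 0.49 (interval -0.78 to 1.75) and 0.24 (-1.43 to 1.91). For Tyrobp, Emr1 and Cd68 they were -0.95, -0.83 and -0.44, with all 3 intervals including 0, while the second Emr1 probe gave -1.83 (interval -3.54 to -0.12, p = 0.038). No probe passed (0%), and 3.79% were higher at unadjusted p under 0.05, 1 of them a member.

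Over weeks 3 to 18 the high fat arrays showed no clear trend. Slopes ran from -0.017 log2 per week (Spp1) to 0.056 (Cd68), with a median of 0.021 against 0.003 for all probes, and the smallest p of a member was 0.115. Of all probes 0.0329% passed adjustment and 6.01% had an unadjusted p under 0.05, none of them a brightest probe of a member. Against the slope on LFC all 10 genes were below 0, with a median of -0.055. Over all probes the median was -0.018, and 42.6% were above 0. Without the 2 arrays that stood apart the median of the members was 0.002, and with normexp correction 0.013. The 1 with an unadjusted p under 0.05 was Cd63, at -0.162 (SE 0.075, p = 0.0415), beside 10.9% of probes that were lower on that scale and 0% that passed. Cd63 was at 0.55 on LFC week 3, and without that array and HFC week 12 the slope was 0.048 (p = 0.512).

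The genes did not vary as 1 block. Over the 37 arrays, Trem2, Itgax, Gpnmb and Lgals3 correlated with each other at r of 0.62 to 0.785 (Spearman's rho 0.614 to 0.766, 6 pairs). Tyrobp, Emr1 and Cd68 formed the second group, at 0.679 to 0.79 (rho 0.675 to 0.787, 3 pairs). Between these groups r ran from -0.178 (Gpnmb with Emr1) to 0.69 (Lgals3 with Cd68). Cd9, Cd63 and Spp1 followed neither, with r from -0.234 to 0.409 against the other 7 genes. Leaving out the 2 arrays farthest from the median kept the groups at 0.578 to 0.738 and 0.64 to 0.748. After the mean of each time point had been subtracted (36 arrays), the first group lay at 0.442 to 0.816 and the second at 0.751 to 0.848. On that scale Cd9 ran opposite to the second group, at -0.681 with Tyrobp, -0.677 with Emr1 and -0.633 with Cd68. Spp1 was at -0.368, -0.499 and -0.469 with the same genes, and Cd63 at -0.141, 0.0192 and 0.288. The groups were formed after the 45 correlations had been seen, and arrays share time points and scan dates, so these values are a description without a test. Trem2 correlated with its adaptor Tyrobp at 0.584 and with Itgax at 0.785.

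**Figure D5:**
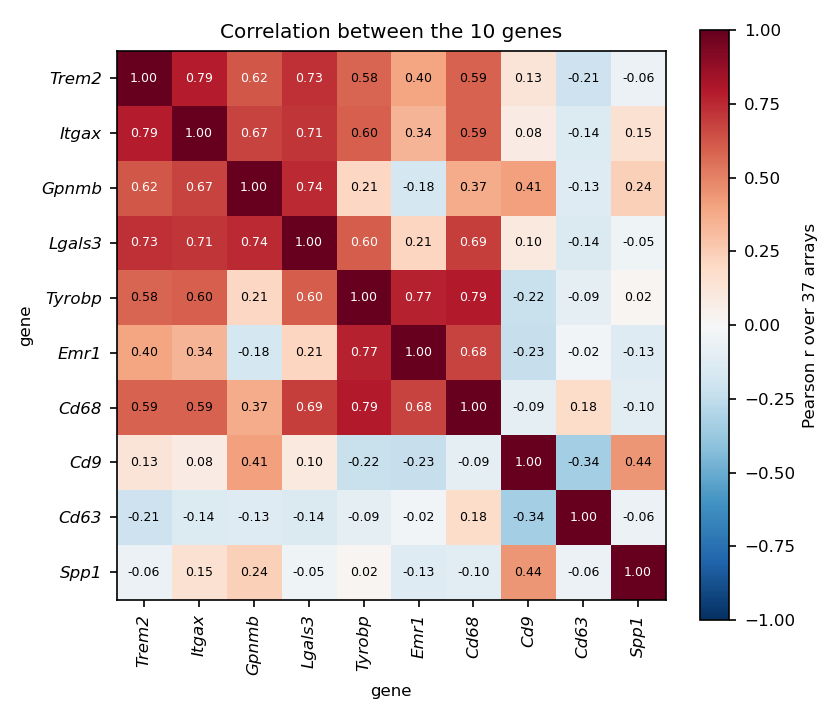
Pearson correlation (colour and number) between each pair of the 10 genes over 37 arrays. Trem2, Itgax, Gpnmb and Lgals3 form 1 block of high values and Tyrobp, Emr1 and Cd68 another, while Cd9, Cd63 and Spp1 lie near or below 0 with most genes.

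Among 28898 other gene names, the 5 whose brightest probe was most like the mean of the 10 genes over the 37 arrays were Adam8 (r = 0.866, rho 0.849), Ceacam16 (0.864, rho 0.836), Mpeg1 (0.859, rho 0.900), Lat2 (0.854, rho 0.867) and Capg (0.851, rho 0.831). Adam8 encodes a membrane metalloprotease, Mpeg1 a pore-forming protein of macrophages, Lat2 an adaptor of immune receptors and Capg an actin-capping protein. With the mean of each time point subtracted, r was 0.867 for Adam8 and 0.723 for Ceacam16, the highest and lowest of the 5.

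Other genes of the same program were taken from a list of 18, of which 17 were on the array. For HFC against LFC over 10 time points, 15 of 16 tested were above 0 (median 0.32) and 0 had an unadjusted p under 0.05. Against LFC, the 4 high fat diets had 16 of 17 above 0 (median 0.51) and 4 higher at unadjusted p under 0.05, but none passed by limma. In that comparison 53.6% of all probes were above 0 and 2.73% were higher at that threshold. Lipa, the lysosomal acid lipase, was higher by 1.1 (SE 0.29, p = 0.00106, adjusted p = 0.769), Nceh1, a cholesterol ester hydrolase, by 0.71 (p = 0.00563) and the cathepsin Ctsz by 0.55 (p = 0.0354). Of 11 genes of TREM2 signalling and macrophage growth factors, 10 were above 0 (median 0.24) and 0 had an unadjusted p under 0.05. The growth factor gene Csf1 was at 0.51 (p = 0.197) and the kinase gene Syk at 0.17 (p = 0.58). Of 14 general macrophage genes 10 were above 0 (median 0.22), with Mpeg1 at 0.68 (p = 0.0345). All 8 resident macrophage genes were above 0 (median 0.40), with Mrc1, the mannose receptor, at 0.51 (p = 0.0736). These differences from LFC include LFC week 3, which stood apart. On it the mean level of each of the 4 lists lay below the other 5 late LFC arrays. For the resident genes it was -0.04 against 1.37 to 3.32, and for the other program genes 1.17 against 2.43 to 3.06. The lists were not tested without that array. For HF75 against HFC the medians of the 4 lists were 0.15, 0.16, 0.17 and 0.36.

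Late against early on HFC, general macrophage genes had a median of -0.73, with 3 of 14 lower at unadjusted p under 0.05, beside 8.79% of all probes. The receptor gene Csf1r differed by -1.34 (SE 0.44, p = 0.0116) and its ligand gene Csf1 by 1.18 (SE 0.39, p = 0.0117), and neither passed adjustment.

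Markers of other cells also differed between the diets. All 6 neutrophil genes were lower on the 4 high fat diets at unadjusted p under 0.05 (median -1.84), while 53.6% of all probes were above 0. Their mean level ran from -0.39 to 1.22 on 5 late LFC arrays and from -2.16 to 0.39 on 5 late HFC arrays. It ran from -3.45 to 1.51 on HF5, -4.55 to 2.36 on HF20 and -4.24 to 0.09 on HF75, so the diets overlapped. B cell genes had a median of -0.89 (2 of 4 lower at that threshold) and T cell genes -0.99 (2 of 4). Dendritic cell genes, of a cell type that also carries ITGAX, had a median of -0.94 (5 of 6 below 0, 2 lower at that threshold). Mesothelial genes had a median of 0.81 and adipocyte genes 0.38, with 0 of 5 and 0 of 7 past it. Epididymal epithelium genes had a median of -1.41 (1 of 6 lower). The share of all probes lower at unadjusted p under 0.05 is not given here, so these counts cannot be read against it. None of these genes passed adjustment in this comparison, and their part in the values of the 10 genes was not tested.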

How the data were processed

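RNA of mouse epididymal fat was measured on 39 arrays, with a single array per diet and time point. Per the file headers, the deposited intensity values are signals that Feature Extraction 10.5.1.1 (9.1 in the submitters' processing notes) had background-subtracted, annotated on build mm9, with no normalisation between arrays. The values the authors deposited as a series matrix are log2 values made in GeneSpring GX, each relative to LFC at that time, and served as an alternative.

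Signals were log2 transformed, the 75th percentile of the array was subtracted, spots marked as outliers were dropped and replicate spots averaged. A probe was tested if well above background on as many arrays as the smaller group held. Differences were tested in limma 3.58.1 under R 4.3.3, two-sided, with Benjamini-Hochberg adjustment over all probes tested and a threshold of 0.05. Comparisons between diets were blocked by time point. The fit was tested on simulated data. Figures were drawn with matplotlib 3.10.9. Precision is limited by the number of arrays.

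The genes named were the 10 members. Of each further list they were the genes that passed, or else the 3 with the smallest p for HFC against LFC and for the 4 high fat diets. The last were the 5 most correlated genes. Members and lists were chosen with earlier results of these data known. Alternatives were 3 scalings or background corrections, outlier spots kept, 2 filters, array weights, arrays or time points left out, probe means, no block, slide as a random block, the authors' values and the methods' t-test on paired differences. The t-test between replicates that the methods describe could not be made.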

Additional observations from a re-analysis of the deposited data

Results flagged for a closer look

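Within each diet and period, 77 sets of 4 to 6 arrays were examined for 1 array far from the rest, and 9 had one. For a single set chance gives about 1 in 20. The sets share arrays and are not independent, so the 9 were not tested against that rate. Each of the following stood away from the other arrays of its set by more than Dixon's 95% limit. On LFC week 3, an array that stood apart in all its spots, Cd63 was at 0.55 (next 4.27), Cd68 at -2.64 (next -0.07) and the mean of the 10 genes at -1.06 (next 1.04). On HF5 week 9, the dimmest array, Trem2 was at 5.29 (next 2.90) and Cd63 at 2.75 (next 4.40). On HFC week 3, Gpnmb was at -4.91 (next 0.04) and the mean of the 10 genes at 0.63 (next 1.98). On HF20 week 6, Itgax was at 2.07 (next -0.70). On HFC day 10, Emr1 was at 4.02 (next 3.07). No further explanation of these arrays was tested.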

How the results depend on the processing

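No member passed adjustment in any comparison, except late against early on HFC with array weights, where 3 did. The cause of the changes below was not tested. Of the counts of probes that passed, 185 of 218 stayed within 1.5 times, and of the medians of the members 222 of 229 moved by less than the spread. With array weights the count of probes was 1 for the 4 high fat diets against LFC, 3 for late against early of the diet difference, 332 for late against early on LFC, 7930 on HFC and 87 for the trend on the high fat diets. For late against early on LFC (145 probes), it was 76 with median scaling, 67 with quantile normalisation, 0 with normexp, 78 with outlier spots kept, 78 with the stricter filter, 219 without the 2 arrays that stood apart, 0 within weeks 0 to 18, and 42 (without day 6) to 219 (without week 3) with 1 time point left out. On HFC (0 probes) it was 40 with median scaling, 1 within weeks 0 to 18, and 0 to 742 (without week 0) with 1 time point left out. For the trend on the high fat diets (10 probes) it was 23 with median scaling and 0 to 52 (without week 3), and the members' median slope ran from -0.047 (without week 3) to 0.064 (without week 18). For the slope against LFC, quantile normalisation gave 2815 probes and leaving out a week 0 to 1, and the members' median was -0.164 with median scaling, 0.013 with normexp, 0.002 without the 2 arrays and -0.108 to 0.002 with a week left out. For the mean of the doses, leaving out a week gave 0 to 1 probes. The unadjusted p of Trem2 for HFC against LFC stayed under 0.05 in 23 of 23 alternatives, and that of Itgax in 22 of 23, the exception being normexp. Diets were paired by time point, which served as the replicate block. Without it no count of probes or members moved, and for HFC against LFC Trem2 was at 0.89 (p = 0.0228) and Itgax at 1.11 (p = 0.0103).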
